A study of Mus musculus with 32 samples.

Results

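The 10 genes described here belong to the tumour necrosis factor (TNF) and TNF receptor superfamilies. They are the ligands Tnf, Tnfsf11 (RANKL) and Tnfsf13b (BAFF), the signalling receptors Tnfrsf1a, Tnfrsf1b, Tnfrsf9, Tnfrsf12a, Fas and Cd40, and the soluble decoy receptor Tnfrsf11b (osteoprotegerin, OPG). They were taken by symbol, and each symbol matched 1 of the 41388 genes in the count tables. The tables came from RNA sequencing of primary sternal chondrocytes of C57BL/6 mice in 32 libraries, a pair for each of 16 conditions. Wild-type cells had no treatment, IL-1β at 10 ng/mL, the LDHA inhibitor FX11 at 40 µM, or both agents, for 24 h. The other cells carried a floxed allele of Ldha (Ldha f/f), of Nampt (Nampt f/f) or of Nfkbiz (Nfkbiz f/f). They were infected with an adenovirus for GFP (GFP virus) or for Cre (Cre virus), and then kept for 24 h in IL-1β or without it. The floxed controls thus carried the floxed allele and a virus, and the deletion was made in culture and not by a tissue-specific Cre.

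TNF superfamily ligands are mostly trimeric proteins that cluster their receptors, which then recruit TRAF adaptors or death domain proteins and start NF-κB, MAP kinase or cell death signalling. RANKL (chr14:78277445-78308043, minus strand, GRCm38) drives the formation of osteoclasts through its receptor RANK, and OPG (chr15:54250619-54278484, minus strand) binds RANKL and blocks it, so the pair is often read as a ratio in bone and cartilage. Ldha encodes the enzyme that makes lactate from pyruvate, Nampt makes the NAD precursor nicotinamide mononucleotide, and Nfkbiz encodes IκB-ζ, a nuclear cofactor of NF-κB.

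The libraries held 15830658 to 39959888 counts, with a median of 25363482. Their titles are numbered in 2 runs, called sets here, of 12 and 20 libraries, and all Nfkbiz f/f libraries are of set 2. The targeted gene was lower with Cre in each line. Levels are given in CPM, counts scaled to the library total as adjusted by edgeR's TMM (trimmed mean of M-values) factors. Under IL-1β, Ldha was at 1560 and 1520 CPM in GFP virus cells of Ldha f/f. It was at 81.6 and 70.5 CPM in Cre virus cells of that line under IL-1β. Nampt was at 66.5 and 66.7 against 5.72 and 4.53 CPM in Nampt f/f, and Nfkbiz at 233 and 228 against 29.1 and 32 CPM in Nfkbiz f/f. In wild type, 2 libraries of set 2 went against their labels. Nfkbiz was at 265 CPM in the set 1 library labelled IL-1β and at 9.93 in that of set 2, and at 16 in the set 1 library labelled FX11 and 168 in that of set 2. Wild-type values are therefore given by library, and the main comparisons rest on the 24 floxed libraries. The summed level of 8 chondrocyte markers was 2190 to 14000 RPKM (CPM divided by gene length in kilobases) there. The sum of 10 haematopoietic and macrophage markers was 12 to 50 RPKM in floxed cells and 80.9 to 217 in wild type. In floxed cells Ptprc, their pan-leukocyte marker, was at most 0.0687 RPKM. Others were higher, with Cd68 at 5.7 to 36.4, Lyz2 at 1.54 to 6.51, Cd14 at 0.435 to 9.79 and Fcer1g at 0.459 to 4.45 RPKM there. None of the 10 was at 0 in any of the 24 libraries. The labels do not say whether the 2 libraries of a condition came from separate animals, so p-values measure the spread between these libraries, which may be technical. In bulk RNA, fewer cells of a type and less RNA per cell cannot be told apart.

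Per length, the 5 most abundant members were receptors, the decoy OPG among them, and the 3 ligands were below 1 RPKM in the median. In the 6 GFP virus libraries without IL-1β, Tnfrsf12a, the receptor of TWEAK, had the highest median level, 94.9 RPKM (62.8 to 110). Tnfrsf1a, the widely expressed TNF receptor with a death domain, followed at 47.9 RPKM (41.9 to 55.8), and Tnfrsf11b at 23.8 RPKM (17.9 to 29.3). Tnfrsf1b, the TNF receptor without a death domain, was at 5.87 RPKM (3.93 to 6.77) and Fas, the death receptor of Fas ligand, at 2.36 RPKM (1.65 to 3.45). Each of these 5 lay apart from its neighbours in the order. The remaining 5 had a median below 1 RPKM and overlapped their neighbours, with Tnfsf11 at 0.614, Cd40 at 0.24, Tnfrsf9 at 0.14, Tnfsf13b at 0.103 and Tnf at 0.0404 RPKM.

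Tnfsf13b, which encodes the B cell survival factor BAFF, was barely detected. Its counts ran from 0 to 14 with a median of 4 over the 32 libraries, 14 libraries had 3 counts or fewer, and its highest level was 0.662 CPM. It never passed the filter, which asked for over 1 CPM in 1 library or more, and was tested in no main comparison. With no filter it was called for IL-1β in GFP virus cells of Nampt f/f (log2 3.07 ± 1.12, adjusted p = 0.0325, edgeR). That call rested on 4 and 0 counts without IL-1β and 12 and 11 with it. Over the GFP virus libraries of the 3 lines it was not called (log2 1.18 ± 0.88, adjusted p = 0.393). The other 9 members passed the filter in every line.

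**Figure D1:**
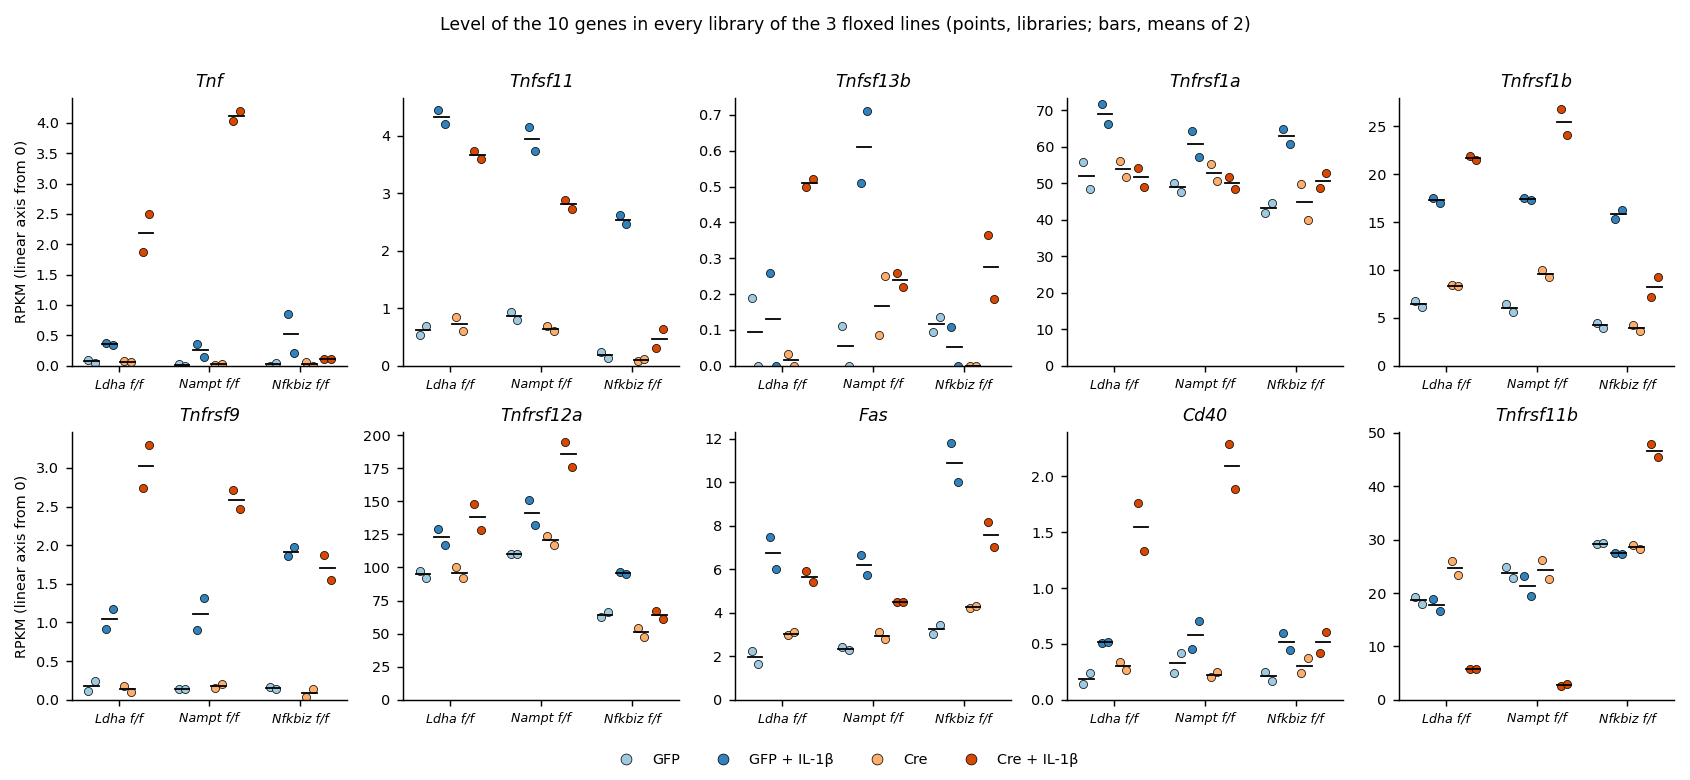
Level of each of the 10 genes in RPKM (vertical axes) in the 24 libraries of the floxed lines, with a point for each library. Within Ldha f/f and Nampt f/f, Tnf, Tnfrsf9 and Cd40 were highest in Cre virus cells under IL-1β, where Tnfrsf11b was lowest, and Tnfrsf11b reached its highest level in Nfkbiz f/f with Cre and IL-1β.

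Whether IL-1β changed the family was first asked in cells that kept the floxed gene. IL-1β raised RANKL and 6 receptors in cells with the GFP virus, and OPG was not called. Over the 12 GFP virus libraries of the 3 lines, 8 members passed the filter on low counts and 7 were called higher, none lower, against 56.2% of all 14283 genes tested that were called and 28.0% that were called higher. The test was edgeR's two-sided quasi-likelihood test with line and library set as covariates, and a call was a Benjamini-Hochberg adjusted p of 0.05 or less over all genes tested. The median log2 fold change of the 8 was 1.44, beside -0.01 over all genes. Tnfsf11, Tnfrsf9 and Cd40 passed this filter only with the IL-1β libraries counted in. These counts and this median thus describe the members and support no direction.

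Among ligands, Tnfsf11 was at 0.294 to 2.1 CPM (median 1.37) without IL-1β and at 5.49 to 9.93 CPM (median 8.83) with it. The groups did not overlap, and Tnfsf11 was 6.9-fold higher (log2 2.79 ± 0.19, adjusted p = 1.95e-09, n = 6 against 6, edgeR). Tnf, the prototype inflammatory ligand, was at 0.0 to 0.146 CPM (median 0.0663) at rest and 0.241 to 1.39 CPM (median 0.574) under IL-1β, without overlap, and was under the filter of the 12-library comparison. Within each line edgeR called it higher. The 2 Ldha f/f libraries of each group held 7 Tnf counts at rest and 35 with IL-1β, a ratio of rates of 5.33 (95% exact interval 2.33 to 14.2), with an adjusted p of 0.0095 from edgeR. The counts in Nampt f/f were 2 and 19, a ratio of 14.3 (95% exact interval 3.46 to 127), with an adjusted p of 0.00497. Those in Nfkbiz f/f were 2 and 36, a ratio of 20.3 (95% exact interval 5.22 to 174), with an adjusted p of 0.0154. These intervals cover counting error only. Tnf passed the filter only through Cre virus libraries under IL-1β in Ldha f/f and Nampt f/f, and only through GFP + IL-1β replicate 1 in Nfkbiz f/f. With no filter on low counts it was also called in each line (log2 2.3 ± 0.62, 3.55 ± 0.78 and 4.18 ± 1.23 by edgeR, adjusted p = 0.00234, 6.68e-05 and 0.00582). The Tnf calls rested on few libraries. In Ldha f/f the call was lost without GFP replicate 2 or GFP + IL-1β replicate 1 (log2 2.01 to 2.8, adjusted p up to 0.0526 in fits that left out 1 library), and also in limma's voom fit. The Nampt f/f call was lost without GFP + IL-1β replicate 1 (log2 2.75 to 6.6, adjusted p up to 0.0779). The Nfkbiz f/f call was lost without GFP replicate 1, and without GFP + IL-1β replicate 1 Tnf was under the filter (log2 3.28 to 7.28, adjusted p up to 0.114). Without GFP replicate 1 the Nampt f/f value was 6.6, and for Nfkbiz f/f it was 7.28 without GFP replicate 2 and 4.87 without GFP + IL-1β replicate 2.

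Among receptors the rise was uneven. Tnfrsf9 (4-1BB), a costimulatory receptor best known on activated T cells, was at 0.293 to 0.651 CPM (median 0.381) at rest and 2.45 to 5.36 CPM (median 3.37) with IL-1β (8.53-fold higher, log2 3.09 ± 0.21, adjusted p = 2.15e-09). Fas was at 2.97 to 6.21 CPM (median 4.24) at rest and 10.4 to 21.3 CPM (median 12.7) with IL-1β (3.22-fold higher, log2 1.69 ± 0.09, adjusted p = 1.58e-10). Tnfrsf1b was at 15 to 25.9 CPM (median 22.4) at rest and 58.5 to 66.8 CPM (median 65.3) with IL-1β (3.12-fold higher, log2 1.64 ± 0.07, adjusted p = 4.58e-12). For these 3 receptors no library with IL-1β was as low as any without it. The share of all genes without overlap in these libraries was not counted, here or for the other members. Cd40, the receptor of CD40 ligand, was at 0.468 to 1.42 CPM (median 0.817) at rest and 1.51 to 2.41 CPM (median 1.75) with IL-1β (2.37-fold higher, log2 1.24 ± 0.21, adjusted p = 0.000108), also without overlap. Of the members called, the most abundant receptors moved least. Tnfrsf1a was at 109 to 145 CPM (median 124) at rest and 148 to 186 CPM (median 167) with IL-1β (log2 0.45 ± 0.04, adjusted p = 1.38e-07). Tnfrsf12a was at 60.5 to 106 CPM (median 91.4) at rest and 91.3 to 145 CPM (median 119) with IL-1β (log2 0.47 ± 0.04, adjusted p = 1.21e-07). Tnfrsf1a did not overlap between the groups. Tnfrsf12a did, and Nfkbiz f/f had lower values than the other lines in both groups. The decoy Tnfrsf11b was at 50.5 to 82.6 CPM (median 67.1) without IL-1β and 46.8 to 77.5 CPM (median 60) with it, overlapping and not called (log2 -0.07 ± 0.04, adjusted p = 0.131). These 7 calls held in all 12 fits that left out 1 library. Tnfsf11, Tnfrsf9 and Cd40 passed the filter only with the IL-1β libraries counted in, and with no filter they were also called (log2 2.77 ± 0.15, 3.08 ± 0.23 and 1.23 ± 0.25, adjusted p = 2.56e-74, 4.29e-40 and 5.29e-06). With the 4 wild-type control libraries added, the Tnfrsf12a call was lost (log2 0.47 ± 0.22, adjusted p = 0.0989), and without the set 2 library labelled IL-1β, a choice made after seeing the data, it held (adjusted p = 0.0335).

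In the lines taken alone, IL-1β raised 8 of 9 tested members in Ldha f/f, 7 of 9 in Nampt f/f and 8 of 9 in Nfkbiz f/f, against 27.9%, 35.0% and 26.8% of all genes called. Tnfrsf9 in each line and Tnfsf11 in Nfkbiz f/f passed the filter, like Tnf, only through libraries with IL-1β, so these counts describe the members and support no direction. Tnfrsf11b was not called in any line, with log2 differences of -0.04 ± 0.08, -0.1 ± 0.1 and -0.07 ± 0.09 in that order, and in Nampt f/f neither was Cd40 (log2 0.92 ± 0.36, adjusted p = 0.0736, edgeR). With no filter Cd40 was called there (log2 0.88 ± 0.34, adjusted p = 0.0499, edgeR). It was also called with the replicate number as a covariate, which the labels do not name as a batch (log2 0.91, adjusted p = 0.0246, edgeR). The Cd40 call was lost in Ldha f/f without GFP replicate 1 (log2 1.12 to 1.93, adjusted p up to 0.0788) and in Nfkbiz f/f without any 1 of its 4 libraries (log2 1.08 to 1.59, adjusted p up to 0.218). Beside these changes all 8 chondrocyte markers were called lower over the 12 libraries, and their sum was 11000 to 14000 RPKM without IL-1β and 4010 to 4930 with it. The haematopoietic sum was 12 to 20.7 RPKM without IL-1β and 24.3 to 50 with it, with 5 of 7 tested markers called higher. Of 5 osteoblast markers, genes of cells that also make RANKL and OPG, the 3 tested were called lower (median log2 -0.93), and of 7 fibroblast and perichondrium markers 4 were lower and 1 higher. The part of any of these shifts in the members' values was not tested. In a model over all 32 libraries, the doubted wild-type libraries included, 1, 0 and 4 members were called for IL-1β in Ldha f/f, in Nampt f/f and in Nfkbiz f/f, and 3, 3 and 0 for the Cre comparison under IL-1β given next. Calls over all genes fell as well in that model. For IL-1β they were 1415, 2191 and 1982, against 4425, 5642 and 4120 in the main fits. For Cre under IL-1β they were 2822, 4934 and 851, against 5392, 7808 and 2666.

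**Figure D2:**
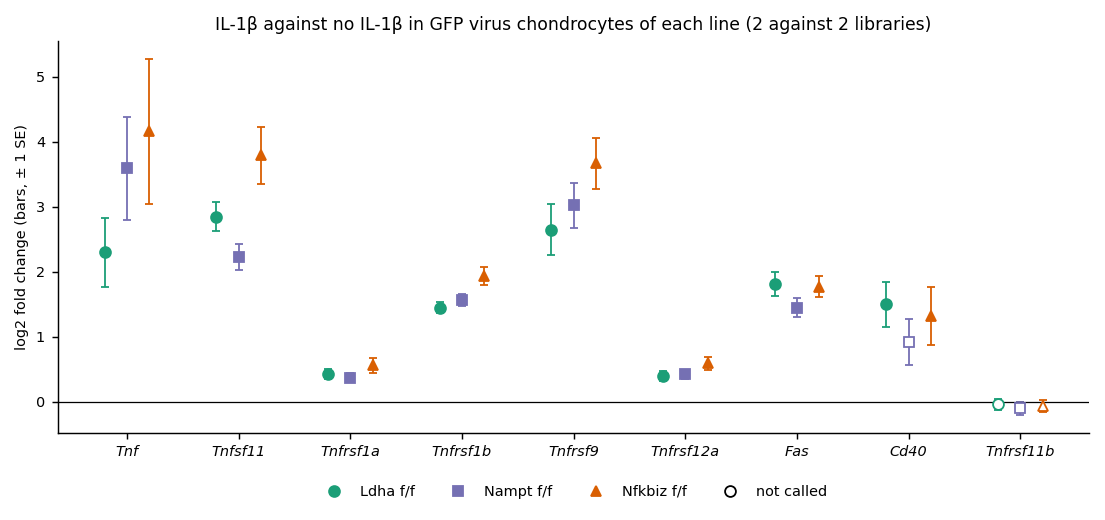
The log2 fold change for IL-1β against no IL-1β of 9 members in GFP virus cells of each line, as points with bars of 1 SE and open points where the change was not called. Tnf, Tnfsf11 and Tnfrsf9 had the highest values, from 2.22 to 4.16, and Tnfrsf11b lay between -0.1 and -0.04.

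Sequence before the start is shown for the 4 members that IL-1β raised in every line and in which a searched motif was found, chosen after these values were seen. RefSeq windows (GRCm38.p6) were found for 8 of the 10 members, not for Tnfrsf11b and Cd40. The 250 bases before each start were searched on both strands for the NF-κB consensus motif, the AP-1 motif TGANTCA and the TATA box TATAAA, which 3.9%, 6.75% and 12.4% of all 32851 RefSeq windows of that length hold. Capitals mark matches. The windows of Tnf (chr17:35202008-35202257, minus strand), Tnfsf11 (chr14:78308044-78308293, minus strand) and Fas (chr19:34290409-34290658, plus strand) end next to the first base of the counted gene and overlap no exon of it.
Tnf: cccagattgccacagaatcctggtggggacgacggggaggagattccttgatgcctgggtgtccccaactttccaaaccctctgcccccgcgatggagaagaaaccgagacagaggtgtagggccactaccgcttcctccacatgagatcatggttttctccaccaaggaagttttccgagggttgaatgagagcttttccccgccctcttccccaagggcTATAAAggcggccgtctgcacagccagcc
Tnfsf11: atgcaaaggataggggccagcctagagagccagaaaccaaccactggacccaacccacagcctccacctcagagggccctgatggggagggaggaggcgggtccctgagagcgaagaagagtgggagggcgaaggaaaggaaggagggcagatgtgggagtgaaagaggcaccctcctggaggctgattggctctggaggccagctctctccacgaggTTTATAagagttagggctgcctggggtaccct
Fas: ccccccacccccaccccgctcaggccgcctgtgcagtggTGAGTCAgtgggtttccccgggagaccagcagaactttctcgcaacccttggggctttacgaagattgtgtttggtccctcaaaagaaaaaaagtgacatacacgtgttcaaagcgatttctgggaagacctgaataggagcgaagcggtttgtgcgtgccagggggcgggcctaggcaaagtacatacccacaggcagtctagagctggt
Tnf held a TATA box 29 to 24 bases before the start, Tnfsf11 held one on the opposite strand 32 to 27 bases before, and Fas held an AP-1 motif, which reads alike on both strands, 211 to 205 bases before. The NF-κB consensus was not matched in these 3 windows, which says only that its letters are not there. The windows of Tnfrsf1a, Tnfrsf1b and Tnfrsf12a, also raised in every line, held 0 motifs, as did the upstream window of Tnfrsf9. Tnfsf13b, which never passed the filter, held an AP-1 motif 127 to 121 bases before its downstream start. A link between motifs and the response to IL-1β was not tested. The members' NF-κB consensus matches lay before a downstream RefSeq start of Tnfrsf9, where they overlapped each other 43 to 34 and 42 to 33 bases before the start, and an AP-1 motif followed 15 to 9 bases before it. This window overlaps an exon of the counted gene. The 30 bases around the match (chr4:150927952-150927981, plus strand) are given.
Tnfrsf9: agctGGGGATTTCCCaggaggccctgctca

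Cre under IL-1β, the comparison of Cre with GFP virus cells of a line, differed between Nfkbiz f/f and the other lines for most members. The level of the targeted gene was lowered but not 0. Counts are per gene, so transcripts with and without the floxed part were not told apart. Nfkbiz in Cre virus cells of Nfkbiz f/f under IL-1β (29.1 and 32 CPM) stayed above resting GFP virus cells (16 and 16.9). No cells without a floxed allele had the Cre virus, so effects of that virus and of the deletion cannot be told apart. Under IL-1β the genes targeted in other lines also differed in level with Cre. Nfkbiz was at 177 and 162 CPM in GFP virus and 70 and 64.8 in Cre virus cells of Ldha f/f under IL-1β and at 200 and 199 against 67.9 and 59.5 in Nampt f/f. Ldha was at 1970 and 1970 against 1120 and 1120 CPM in Nfkbiz f/f, and Nampt at 107 and 114 against 66.2 and 45.9. In Ldha f/f, 4 of 9 tested members were called higher and 2 lower (34.0% of all genes called). In Nampt f/f, 5 were higher and 4 lower (48.4%), and in Nfkbiz f/f, 1 was higher and 4 lower (17.4%). The members' median log2 change was 0.19, 0.39 and -0.54, beside -0.02, -0.03 and -0.01 over all genes. Tnf, among those called higher, passed the filter in Ldha f/f and Nampt f/f only through these Cre virus libraries. In Nfkbiz f/f it passed only through a GFP virus library under IL-1β. These counts and medians thus describe the members and support no direction.

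OPG fell with Cre in Ldha f/f and Nampt f/f and rose in Nfkbiz f/f. Tnfrsf11b was at 53.1 and 46.8 CPM in GFP virus cells of Ldha f/f under IL-1β and at 16.4 and 16 in Cre virus cells (3.01-fold lower, log2 -1.59 ± 0.09, adjusted p = 1.16e-06, edgeR). The Nampt f/f values were 65.3 and 54.8 against 7.49 and 8.16 CPM (7.7-fold lower, log2 -2.94 ± 0.11, adjusted p = 9.93e-09). Those of Nfkbiz f/f were 77.5 and 77.2 against 135 and 128 CPM (1.69-fold higher, log2 0.75 ± 0.09, adjusted p = 7.75e-05). The groups did not overlap in any line, though the share of all genes without overlap was not counted. Each call held in all 4 fits that left out 1 library. The Cre virus libraries under IL-1β held the 4 lowest Tnfrsf11b levels of the 32 libraries, in Nampt f/f and Ldha f/f, and the 2 highest, in Nfkbiz f/f.

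RANKL fell most in Nfkbiz f/f. Tnfsf11 was at 5.85 and 5.49 CPM in GFP virus cells of Nfkbiz f/f under IL-1β and at 0.678 and 1.42 in Cre virus cells (5.43-fold lower, log2 -2.44 ± 0.39, adjusted p = 0.000833, edgeR), beside 0.531 and 0.294 in resting GFP virus cells. Without Cre + IL-1β replicate 2 the log2 value was -3.06. In Ldha f/f it was at 9.93 and 9.39 against 8.36 and 8.02 CPM and was not called (log2 -0.2 ± 0.19, adjusted p = 0.448). Levels in Nampt f/f were 9.29 and 8.37 against 6.47 and 6.08 CPM, a small decrease that was called (log2 -0.49 ± 0.18, adjusted p = 0.0408). That call was lost without any 1 of the 4 libraries (log2 -0.55 to -0.46, adjusted p up to 0.15), in DESeq2 and with no filter.

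Tnf had the opposite sign to OPG in each line. It was at 0.617 and 0.555 CPM in GFP virus cells of Ldha f/f under IL-1β and at 3.09 and 4.08 in Cre virus cells (6.19-fold higher, log2 2.63 ± 0.39, adjusted p = 0.000624, edgeR). Nampt f/f cells had 0.593 and 0.241 against 6.61 and 6.89 CPM (15.2-fold higher, log2 3.93 ± 0.41, adjusted p = 1.85e-05). These 4 Cre virus libraries had the highest Tnf levels of the 32. They were also the libraries through which Tnf passed the filter in those lines, and with no filter its log2 changes were 2.61 ± 0.46 and 3.95 ± 0.4 (adjusted p = 2.79e-07 and 1.58e-21, edgeR). Without GFP + IL-1β replicate 1 of Nampt f/f the log2 value was 4.73. Nfkbiz f/f cells had 1.39 and 0.346 against 0.169 and 0.172 CPM, from 36 and 8 counts in all, and Tnf was not called there (log2 -2.3 ± 0.89, adjusted p = 0.1).

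Of the receptors, Cd40 and Tnfrsf9 had the largest increases in Ldha f/f and Nampt f/f. Cd40 went from 1.74 and 1.76 to 6.01 and 4.52 CPM in Ldha f/f (log2 1.62 ± 0.31, adjusted p = 0.00274, edgeR). Nampt f/f cells went from 1.54 and 2.41 to 7.82 and 6.44 CPM (log2 1.88 ± 0.32, adjusted p = 0.00062). The groups overlapped in Nfkbiz f/f, at 2.03 and 1.51 against 1.44 and 2.06 CPM (log2 -0.02 ± 0.4, adjusted p = 0.977). Tnfrsf9 went from 2.5 and 3.19 to 7.47 and 8.99 CPM in Ldha f/f (log2 1.57 ± 0.32, adjusted p = 0.00405). Nampt f/f cells went from 2.45 and 3.55 to 7.39 and 6.73 CPM (log2 1.25 ± 0.26, adjusted p = 0.00231), and Nfkbiz f/f cells had 5.06 and 5.36 against 5.08 and 4.21 CPM (log2 -0.17 ± 0.3, adjusted p = 0.744).

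The receptors of TNF and TWEAK moved less. Tnfrsf1b rose in Ldha f/f, from 66.8 and 64.8 to 83.7 and 82 CPM (log2 0.37 ± 0.07, adjusted p = 0.00426, edgeR), and in Nampt f/f, from 66.8 and 65.9 to 102 and 91.9 CPM (log2 0.55 ± 0.08, adjusted p = 0.000209). It fell in Nfkbiz f/f, from 58.5 and 62.2 to 27.4 and 35.4 CPM (log2 -0.96 ± 0.13, adjusted p = 0.000318). Tnfrsf12a had log2 changes of 0.19 ± 0.08 in Ldha f/f, which was not called (adjusted p = 0.0807), 0.39 ± 0.07 in Nampt f/f (adjusted p = 0.000848) and -0.59 ± 0.1 in Nfkbiz f/f (adjusted p = 0.00154). With the replicate number as a covariate the Ldha f/f value was called (adjusted p = 0.0105, edgeR). Tnfrsf1a was called lower in Ldha f/f (log2 -0.38 ± 0.08, adjusted p = 0.00546) and Nampt f/f (log2 -0.27 ± 0.07, adjusted p = 0.00683) and was not called in Nfkbiz f/f (log2 -0.32 ± 0.11, adjusted p = 0.072). With no filter the Nfkbiz f/f value was called (adjusted p = 0.0392, edgeR). The call in Nampt f/f was lost without Cre + IL-1β replicate 2 (log2 -0.34 to -0.24, adjusted p up to 0.0543). Fas was called lower in Nampt f/f (log2 -0.47 ± 0.14, adjusted p = 0.0195) and Nfkbiz f/f (log2 -0.54 ± 0.15, adjusted p = 0.0284) and was not called in Ldha f/f (log2 -0.22 ± 0.17, adjusted p = 0.363). The Fas calls depended on single libraries. The Nampt f/f call held only without GFP + IL-1β replicate 2 among the fits that left out 1 library (log2 -0.55 to -0.41, adjusted p up to 0.104) and was lost in DESeq2 and with no filter. The Nfkbiz f/f call held only without Cre + IL-1β replicate 1 (log2 -0.66 to -0.41, adjusted p up to 0.245).

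**Figure D3:**
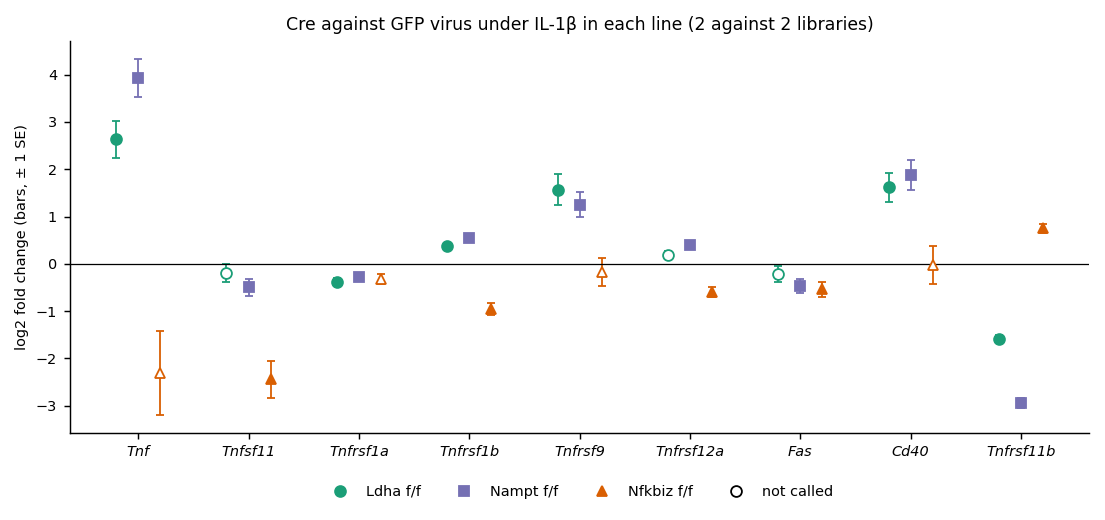
The log2 fold change for Cre against GFP virus under IL-1β of 9 members in each line, as points with bars of 1 SE and open points where the change was not called. Tnfrsf11b lay at -1.59 in Ldha f/f, -2.94 in Nampt f/f and 0.75 in Nfkbiz f/f, and Tnf at 2.63, 3.93 and -2.3.

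In the fit over the 24 floxed libraries, the Cre effect under IL-1β differed between Nfkbiz f/f and Ldha f/f for 7 of 9 members (27.0% of all genes called) and between Nfkbiz f/f and Nampt f/f for 7 of 9 (36.3%). Tnfrsf1a and Fas were the 2 not called in either. Tnf passed the filter of this fit only through libraries in which it was high, so its calls describe it and support no direction. When Ldha f/f was set against Nampt f/f, 1 of 9 members was called, Tnfrsf11b (0.538% of all genes). Averaged over the 3 lines, Cre under IL-1β gave 5 calls among 9 members (37.7% of all genes). Tnfrsf9 (log2 0.91 ± 0.26, adjusted p = 0.0196, edgeR) and Cd40 (log2 1.23 ± 0.3, adjusted p = 0.00977) were higher, and Tnfsf11 (log2 -0.89 ± 0.32, adjusted p = 0.046), Tnfrsf1a (log2 -0.31 ± 0.05, adjusted p = 0.000847) and Fas (log2 -0.39 ± 0.09, adjusted p = 0.00787) lower. Tnf (log2 1.96 ± 0.8, adjusted p = 0.0764) and Tnfrsf11b (log2 -1.23 ± 0.52, adjusted p = 0.083) were not called in the average. With no filter on low counts both were called (log2 1.94 ± 0.64 and -1.25 ± 0.39, adjusted p = 0.0387 and 0.0294, edgeR). In the filtered average the Tnfsf11 call was lost in 9 of the 12 fits that left out 1 library (log2 -1.05 to -0.64, adjusted p up to 0.0963). It held only without Ldha f/f GFP + IL-1β replicate 1 or 2 or Nfkbiz f/f Cre + IL-1β replicate 1. The Tnfrsf9 call was lost without either GFP + IL-1β library or Cre + IL-1β replicate 2 of Ldha f/f, or replicate 1 of GFP + IL-1β or Cre + IL-1β of Nampt f/f (log2 0.76 to 1.09, adjusted p up to 0.0653).

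Markers of cell types moved with these comparisons as well. With Cre under IL-1β the 8 chondrocyte markers were all called lower in Ldha f/f, 7 of them in Nampt f/f, and in Nfkbiz f/f 1 was higher and 1 lower. Their sum went from 4180 and 4200 to 2190 and 2400 RPKM in Ldha f/f, from 4010 and 4130 to 2360 and 2470 in Nampt f/f, and from 4590 and 4930 to 5430 and 5840 in Nfkbiz f/f. Of 7 fibroblast and perichondrium markers, 6, 6 and 1 were called lower in the 3 lines. Of 4 osteoblast markers tested, 3 were called lower in Ldha f/f (median log2 -1.42) and 2 in Nampt f/f (median log2 -1.02), and of 3 tested in Nfkbiz f/f 0 were called. The osteoblast sum went from 8.77 and 8.82 to 4.42 and 4.88 RPKM in Ldha f/f, from 5.43 and 5.9 to 3.77 and 3.86 in Nampt f/f and from 5.04 and 7.75 to 6.09 and 8.69 in Nfkbiz f/f. The haematopoietic sum went from 31.5 and 32.9 to 20.9 and 22.1 RPKM in Ldha f/f and from 24.3 and 28 to 16.8 in both Cre virus libraries of Nampt f/f, with 2 of 10 tested markers called lower in Ldha f/f, and 1 of 7 higher and 3 lower in Nampt f/f. The sum of 6 lymphocyte markers went from 0.909 and 1.23 to 1.76 and 2.06 RPKM and from 0.94 and 1.42 to 2.15 and 2.69 in the same lines, with 1 of 2 tested markers called higher in each. Of these 6, Ms4a1, Cd3g and Nkg7 were at 0 in 13, 22 and 19 of the 24 floxed libraries, and Cd3e and Cd79a were above 0 in all 24. The sum of 5 endothelial markers went from 0.953 and 0.98 to 2.53 and 3.17 RPKM and from 1.16 and 1.32 to 3.38 and 4.03, with 1 of 4 tested markers called higher in Ldha f/f, and 2 of 4 higher and 1 lower in Nampt f/f. Of 6 osteoclast markers 3 were tested in Ldha f/f and Nampt f/f, and 1 was called lower in each. Their part in the members' values was not tested.

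Without IL-1β, Cre changed few members. In Ldha f/f, Tnfrsf1b (log2 0.37 ± 0.08, adjusted p = 0.0239, edgeR) and Tnfrsf11b (log2 0.4 ± 0.08, adjusted p = 0.0218) were called higher of 9 tested (5.52% of all genes). Tnfrsf11b was at 54.3 and 50.5 CPM in GFP virus and 73.4 and 65.9 in Cre virus cells, the opposite direction to that under IL-1β. Its call was lost without any 1 of the 4 libraries (log2 0.34 to 0.46, adjusted p up to 0.17), and that of Tnfrsf1b held only without GFP replicate 1 (log2 0.31 to 0.44, adjusted p up to 0.144). In Nampt f/f, Tnfrsf1b was the 1 member called (log2 0.66 ± 0.08, adjusted p = 0.000451, 14.4% of all genes), at 24.7 and 21.5 against 38.2 and 35.2 CPM. In Nfkbiz f/f edgeR called 0 of 9 members (0.26% of all genes), and Tnfrsf12a (-0.35 ± 0.1, unadjusted p = 0.00568) and Fas (0.39 ± 0.17, unadjusted p = 0.0374) were the 2 with an unadjusted p under 0.05. DESeq2 and voom also called 0 of 9 there. Averaged over the 3 lines, Tnfrsf1b (log2 0.35 ± 0.1, adjusted p = 0.0256) and Fas (log2 0.46 ± 0.1, adjusted p = 0.00773) were called higher of 6 tested (17.8%). This Tnfrsf1b call was lost without any 1 library of Ldha f/f or Nampt f/f (log2 0.28 to 0.42, adjusted p up to 0.0951). Beside these changes, chondrocyte markers were called lower for 5 of 8 in Ldha f/f (median log2 -0.47), 8 of 8 in Nampt f/f (-0.57), 0 of 8 in Nfkbiz f/f (-0.16) and 7 of 8 averaged (-0.4). Fibroblast and perichondrium markers were lower for 2, 4 and 0 in the lines and 3 averaged, and 1 endothelial marker was higher in Ldha f/f and 1 in Nampt f/f. Their part in the members' values was not tested.

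The interaction asks whether the Cre effect with IL-1β differed from that without it. It was called for 2 of 9 members in Ldha f/f (11.5% of all genes), 4 of 9 in Nampt f/f (22.0%) and 3 of 9 in Nfkbiz f/f (5.19%). Tnfrsf11b was called in all 3 lines, with log2 interactions of -1.99 ± 0.12 in Ldha f/f (adjusted p = 1.64e-05, edgeR), -2.98 ± 0.14 in Nampt f/f (9.77e-07) and 0.79 ± 0.12 in Nfkbiz f/f (0.00246), and held in every fit that left out 1 library. Cd40 was called in Nampt f/f (log2 2.37 ± 0.5, adjusted p = 0.00641). Tnf was not called in Ldha f/f (log2 2.76 ± 0.82, adjusted p = 0.0592) or Nampt f/f (log2 4.02 ± 1.57, adjusted p = 0.0965), where its resting counts were low.

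The other interaction calls were of receptors and depended on single libraries. Tnfrsf1a in Ldha f/f (log2 -0.43 ± 0.12, adjusted p = 0.0433, edgeR) held only without GFP replicate 1 (log2 -0.52 to -0.34, adjusted p up to 0.152). For Nampt f/f (log2 -0.39 ± 0.1, adjusted p = 0.0149) it was lost without Cre replicate 1 or Cre + IL-1β replicate 2 (log2 -0.47 to -0.34, adjusted p up to 0.06). Fas in Nampt f/f (log2 -0.79 ± 0.21, adjusted p = 0.0207) was lost without replicate 1 of GFP + IL-1β or of Cre or without either Cre + IL-1β library (log2 -0.87 to -0.72, adjusted p up to 0.0779). For Nfkbiz f/f (log2 -0.93 ± 0.23, adjusted p = 0.033) it held only without Cre + IL-1β replicate 1 (log2 -1.05 to -0.8, adjusted p up to 0.17) and was lost in limma's voom fit. Tnfrsf1b in Nfkbiz f/f (log2 -0.87 ± 0.2, adjusted p = 0.0229) held only without Cre replicate 2 or either Cre + IL-1β library (log2 -1.06 to -0.7, adjusted p up to 0.133).

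The ratio of Tnfsf11 to Tnfrsf11b RPKM combined ligand and decoy. Per 100 RPKM of Tnfrsf11b, resting GFP virus cells had 2.78 and 3.86 RPKM of Tnfsf11 in Ldha f/f, 3.79 and 3.51 in Nampt f/f and 0.817 and 0.448 in Nfkbiz f/f. With IL-1β they had 23.6 and 25.3, 17.9 and 19.3, and 9.51 and 8.96. In Cre virus cells under IL-1β the values were 64.2 and 63.2 in Ldha f/f, 109 and 93.9 in Nampt f/f, and 0.632 and 1.4 in Nfkbiz f/f. RANKL and OPG mRNA were thus about level per length in Nampt f/f with Cre and IL-1β, and in Nfkbiz f/f 1 of the 2 Cre virus libraries under IL-1β lay between the resting GFP virus libraries of that line and the other above them.

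On the log2 scale with 0.1 RPKM added to each gene, IL-1β raised the ratio by a mean of 2.75 over the lines (2.71 for Ldha f/f, 2.23 for Nampt f/f and 3.32 for Nfkbiz f/f). The exact two-sided permutation test over all arrangements within lines gave p = 0.00926, the smallest it can give, and 0.0278 after Benjamini-Hochberg adjustment over 3 tests. The size depended on the value added, with a mean of 1.67 when 1 RPKM was added and 3.02 with 0.01 RPKM. Cre under IL-1β moved it by 1.37, 2.41 and -3.04, a mean of 0.25 (exact permutation p = 0.639, adjusted p = 0.639), and this mean turned negative without Ldha f/f (-0.31) or without Nampt f/f (-0.83) and was 1.89 without Nfkbiz f/f. Cre without IL-1β changed it by -0.21, -0.41 and -0.45 in the lines, a mean of -0.36 (exact permutation p = 0.0278, adjusted p = 0.0417). With 1 line left out this p was 0.0556 without Ldha f/f, 0.167 without Nampt f/f and 0.111 without Nfkbiz f/f, and 2 lines cannot give less than 0.0556. In a single line, 2 against 2 libraries cannot give an exact permutation p below 0.333.

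**Figure D4:**
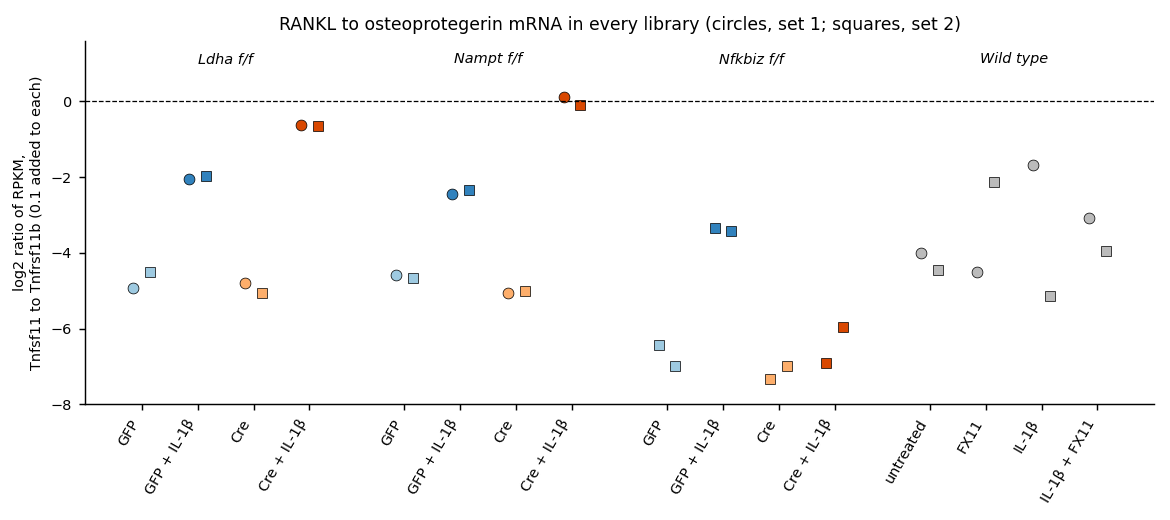
The log2 ratio of Tnfsf11 to Tnfrsf11b RPKM (vertical axis, 0.1 added to each) in each of the 32 libraries by line and treatment, with circles for set 1 and squares for set 2. Cre virus cells under IL-1β lay at -0.63 and -0.65 in Ldha f/f, 0.12 and -0.09 in Nampt f/f, and -6.9 and -5.95 in Nfkbiz f/f.

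The other genes of the pathway were read from 3 lists. Of 15 other TNF superfamily ligands 4 passed the filter in the 12 GFP virus libraries, and 2 rose with IL-1β (median 0.75, beside -0.01 over all genes, of which 56.2% were called). They were Tnfsf9, the ligand of Tnfrsf9 (log2 1.34 ± 0.11, adjusted p = 2.56e-08, edgeR), and Tnfsf15, the ligand of death receptor 3 (2.43 ± 0.35, adjusted p = 1.76e-05). With Cre under IL-1β, 3 of 5 tested were higher in Ldha f/f, 2 of 5 higher in Nampt f/f and 1 of 4 lower in Nfkbiz f/f, with medians of 1.17, 0.84 and 0.3, beside 34.0%, 48.4% and 17.4% of all genes called in either direction. Tnfsf9 was at 20.4 and 18.8 CPM in GFP virus and 43.3 and 47.7 in Cre virus cells of Ldha f/f under IL-1β, and was called higher there (1.25 ± 0.17, adjusted p = 0.000365) and in Nampt f/f (1.67 ± 0.09, adjusted p = 1.14e-07) and lower in Nfkbiz f/f (-1.02 ± 0.2, adjusted p = 0.00356). Ltb, which encodes lymphotoxin β, was at 0.134 and 0.0463 CPM in GFP virus and 1.16 and 1.02 in Cre virus cells of Ldha f/f under IL-1β, and at 0.198 and 0.482 against 1.21 and 2.2 in Nampt f/f. It passed the filter only through these Cre virus libraries, so its levels are given as a description, although it counts among the ligands called higher in both lines.

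Of 21 other receptors 16 were tested with IL-1β, of which 5 rose and 4 fell (median 0.18), beside 56.2% of all genes called. Tnfrsf26 (log2 1.78 ± 0.15, adjusted p = 2.32e-08, edgeR) and Tnfrsf23, a mouse decoy receptor of TRAIL (0.57 ± 0.05, adjusted p = 1.05e-07), rose, both uncertain since they belong to a cluster of similar genes that may share reads, and Tnfrsf21, death receptor 6, fell (-0.47 ± 0.07, adjusted p = 1.64e-05). With Cre under IL-1β, 6 of 17 rose in Ldha f/f and 9 of 17 in Nampt f/f, none fell in either, and in Nfkbiz f/f 2 of 16 rose and 1 fell, with medians of 0.22, 0.38 and -0.03, beside the same 34.0%, 48.4% and 17.4% of all genes called, to which these shares of called genes lay close. Ngfr, the p75 neurotrophin receptor, was at 3.97 and 4.77 CPM in GFP virus and 87.7 and 90.1 in Cre virus cells of Ldha f/f under IL-1β (4.4 ± 0.12, adjusted p = 2.58e-08). In Nampt f/f it was at 2.65 and 3.37 against 149 and 158 CPM (5.7 ± 0.17, adjusted p = 2.38e-09), and in Nfkbiz f/f at 0.793 and 0.952 against 2.08 and 3.4 CPM (1.63 ± 0.37, adjusted p = 0.00927). Tnfrsf19 (TROY) was also called higher in all 3 lines, by 2.5 ± 0.18, 2.68 ± 0.14 and 1.86 ± 0.33 (adjusted p = 5.55e-06, 8.47e-08 and 0.00189). No member was called higher in all 3 lines.

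All 28 adaptor and signalling genes were tested, and with IL-1β 16 rose and 7 fell (median 0.27), beside 56.2% of all genes called. The 3 with the smallest adjusted p were Birc3, the ubiquitin ligase cIAP2 (log2 2.07 ± 0.09, adjusted p = 1.07e-11, edgeR), Tnfaip3, which encodes the NF-κB inhibitor A20 (2.3 ± 0.12, adjusted p = 4.77e-11), and Traf3 (0.57 ± 0.04, adjusted p = 2.28e-09). With Cre under IL-1β, 7 rose and 8 fell in Ldha f/f, 12 and 7 in Nampt f/f, and 3 and 3 in Nfkbiz f/f, with medians of 0.06, 0.1 and -0.06, and the shares of all genes called are those given for the receptors. The 4 adaptor genes named for this comparison were each called in the same direction in all 3 lines. In the order Ldha f/f, then Nampt f/f, then Nfkbiz f/f, Traf4 changed by 0.89 ± 0.09, 1.17 ± 0.07 and 0.47 ± 0.11 (adjusted p = 4.3e-05, 3.11e-07 and 0.0124). Cyld, a deubiquitinase that restrains NF-κB, changed by 0.45 ± 0.08, 0.34 ± 0.08 and 0.72 ± 0.12 (adjusted p = 0.00201, 0.00398 and 0.0014). Tank, a TRAF-binding adaptor, changed by -0.35 ± 0.11, -0.48 ± 0.11 and -0.68 ± 0.16 (adjusted p = 0.0389, 0.0051 and 0.0109). Ikbkg, which encodes NEMO, changed by -0.83 ± 0.1, -0.94 ± 0.1 and -0.36 ± 0.11 (adjusted p = 0.000165, 1.83e-05 and 0.0341), and is uncertain because its exons overlap those of G6pdx on the opposite strand.

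Wild-type comparisons by label made no call. IL-1β, FX11 and both against untreated, and both against IL-1β, each had 0 of 9 members and 0.0% of 15461 genes called by edgeR. At an unadjusted p under 0.05, 153, 68, 861 and 102 genes passed, in that order. DESeq2 called 0 members and 6, 2, 153 and 1 genes, and voom 0 members. The members with an unadjusted p under 0.05 were Fas (0.0294) and Cd40 (0.0286), both for IL-1β with FX11 against untreated. In set 1, Tnfsf11 was at 1.83 CPM untreated, 1.77 with FX11, 23.2 with IL-1β and 8 with both. The set 2 libraries with the same labels had 1.61, 9.02, 0.714 and 1.44 CPM. Cd40, in the same order, was at 1.44, 2.19, 1.38 and 3.51 CPM in set 1 and 0.22, 0.959, 1.09 and 5.97 in set 2, so that the library labelled with both agents was highest in each set. Tnfrsf11b was at 41.6, 57.1, 93.3 and 87.4 CPM in set 1 and 50.2, 50.4, 41.4 and 32.3 in set 2. Tnf was at 0.481 and 1.1 CPM in untreated wild type, above all 6 resting GFP virus libraries, beside the higher haematopoietic sum of wild type, whose part was not tested.

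A fit without the set 2 libraries labelled IL-1β and FX11, chosen after seeing the data, left 1 library in 2 of the 4 groups, assumed to vary like the others. The log2 change with IL-1β was then 3.74 ± 0.95 for Tnfsf11, 3.84 ± 0.55 for Tnfrsf9, 2.74 ± 0.5 for Tnfrsf1b and 2.26 ± 0.26 for Fas, none called (adjusted p from edgeR = 0.354, 0.161, 0.216 and 0.121).

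**Figure D5:**
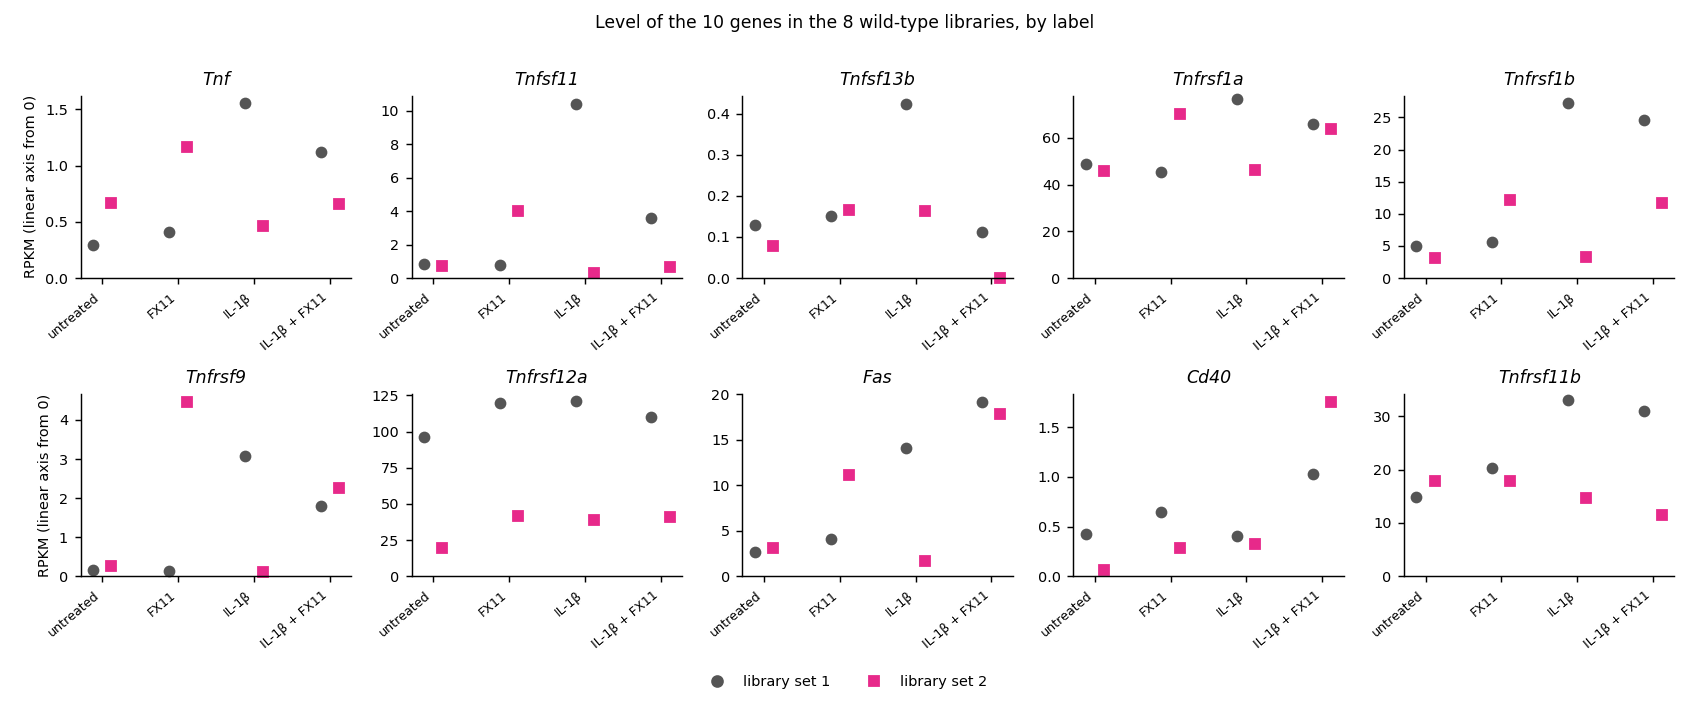
Level of the members in RPKM (vertical axes) in the 8 wild-type libraries by label, with circles for set 1 and squares for set 2. For Tnfsf11, Tnfrsf1b, Tnfrsf9 and Fas the set 2 library labelled FX11 stood above the set 2 library labelled IL-1β, the reverse of set 1.

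The genes whose pattern over all 32 libraries was most like that of a member were found by Pearson's r of log2 CPM (0.5 added, TMM scaled) among 14250 genes with a mean over 1 CPM. For Tnf they were Susd2 (r = 0.92), Fbxo28 (r = 0.91) and Igsf8 (r = 0.89), for Tnfsf11 Fstl1 (r = 0.96), Trib1 (r = 0.94) and Gsr (r = 0.94), and for Tnfrsf11b Ankrd28 (r = 0.92), Meis2 (r = 0.91) and Hrct1 (r = 0.91). The points share libraries and conditions, so these values are descriptions.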

How the data were processed

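RNA of mouse sternal chondrocytes was sequenced in 32 libraries. The authors depleted ribosomal RNA, aligned reads to Ensembl release 76 (GRCm38) with STAR and counted unambiguous reads per gene with featureCounts. The submitters' processing notes name STAR 2.0.4b and featureCounts 1.45, and the study's methods give other versions. Whether counting used strand is not given in the sources used here. The deposited counts are not normalized. The deposited CPM divide counts by the library total and the deposited RPKM also by gene length. The levels given here were instead computed from the counts, with TMM factors and, for RPKM, gene length.

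Groups came from the labels. Genes over 1 CPM in at least 1 library (within lines, wild type and the fit over 24 libraries) or 5 libraries (6 against 6), without ribosomal RNA genes, were tested with edgeR 4.0.16 (TMM, quasi-likelihood, two-sided) in R 4.3.3. Fits within a line used its 8 libraries, and fits across lines held library set as a covariate. The SE given after ± for edgeR was the absolute log2 change divided by the square root of the F statistic. It is an approximation. Alternatives were DESeq2 1.42.0, limma 3.58.1 (voom with quality weights), other scalings and filters, a replicate block, all libraries in 1 model, and leaving out libraries, sets or lines. On simulated data the fit within Ldha f/f recovered 163 of 200 genes changed 2-fold among 15076, with 5 false calls, and the fit for line differences 67 of 200 among 15505, with 6 false calls. Only genes with a higher mean count than Tnf were changed, and all genes had the same dispersion. These rates thus do not describe Tnf or Tnfsf13b. Named genes were the members, the 3 deleted genes, of each other list up to 3 called genes of smallest adjusted p with IL-1β and up to 2 for Cre under IL-1β in each line, and the 3 genes most like Tnf, Tnfsf11 and Tnfrsf11b. Members and lists were chosen with earlier results of these data known. The level of 1 lymphocyte marker is not reported here.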

Additional observations from a re-analysis of the deposited data

Results flagged for a closer look

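The Cre effect under IL-1β differed between lines for 7 members, by edgeR's test of the difference in the fit over 24 floxed libraries, with adjusted p-values given in brackets after each gene. For Nfkbiz f/f minus Ldha f/f the log2 difference ± SE was 2.38 ± 0.11 for Tnfrsf11b (1.16e-13), -4.89 ± 0.85 for Tnf (0.00013), -2.2 ± 0.34 for Tnfsf11 (2.42e-05), -1.71 ± 0.36 for Tnfrsf9 (0.00105), -1.61 ± 0.47 for Cd40 (0.0123), -1.29 ± 0.14 for Tnfrsf1b (1.44e-07) and -0.74 ± 0.1 for Tnfrsf12a (6.14e-06). For Nfkbiz f/f minus Nampt f/f it was 3.75 ± 0.11 for Tnfrsf11b (6.51e-17), -6.18 ± 0.87 for Tnf (6.01e-06), -1.9 ± 0.34 for Tnfsf11 (0.000107), -1.4 ± 0.37 for Tnfrsf9 (0.00454), -1.87 ± 0.47 for Cd40 (0.00318), -1.46 ± 0.14 for Tnfrsf1b (1.29e-08) and -0.94 ± 0.1 for Tnfrsf12a (1.5e-07). For Ldha f/f minus Nampt f/f it was 1.37 ± 0.12 for Tnfrsf11b (2.51e-07). Tnf passed the filter of this fit only through Cre + IL-1β libraries of Ldha f/f and Nampt f/f and GFP + IL-1β replicate 1 of Nfkbiz f/f. High values in these libraries also make its differences negative. With no filter they were -4.88 ± 0.74 against Ldha f/f and -6.24 ± 0.76 against Nampt f/f (adjusted p = 2.14e-09 and 1.01e-14, edgeR). All calls held in the 8 fits that left out 1 library, except that of Cd40 against Ldha f/f, which was lost without Ldha f/f Cre + IL-1β replicate 1 or Nfkbiz f/f GFP + IL-1β replicate 1 (log2 -1.9 to -1.31, adjusted p up to 0.0841). Over those fits Tnf ranged over -5.6 to -3.6 against Ldha f/f and -7.06 to -4.89 against Nampt f/f, and Tnfsf11 over -2.83 to -1.76 and -2.53 to -1.46. The values outside 1.5 times were for Tnf without either GFP + IL-1β library of Nfkbiz f/f or without GFP + IL-1β replicate 1 of Nampt f/f, and for Tnfsf11 without Nfkbiz f/f Cre + IL-1β replicate 2. All Nfkbiz f/f libraries are of set 2. Within set 2, Tnfrsf11b under IL-1β was at 46.8 CPM in GFP virus and 16 in Cre virus cells of Ldha f/f. It was at 54.8 against 8.16 in Nampt f/f and at 77.5 and 77.2 against 135 and 128 in Nfkbiz f/f. Those Ldha f/f and Nampt f/f values are of 1 library each, and the part of the set was not tested. The sum of 7 fibroblast and perichondrium markers was 102 and 105 RPKM in GFP virus cells of Nfkbiz f/f under IL-1β, against 591 and 599 in Ldha f/f and 510 and 511 in Nampt f/f, and its part was not tested. With 2 libraries in each condition, no condition could be checked for an outlying library.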

How the results depend on the processing

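Over all alternatives, 1079 of 1224 values of called members kept their direction and call, 145 kept their direction and lost the call, and 0 reversed. Of 1528 values of members not called, 41 became calls and 103 changed sign without a call. The counts of members called moved by over 1.5 times in these cases. With all 32 libraries in 1 model, which adds the wild-type libraries to the estimate of spread, calls for IL-1β in the lines (here and below in the order Ldha, Nampt, Nfkbiz) went to 1, 0 and 4 (from 8, 7 and 8), for Cre under IL-1β to 3, 3 and 0 (from 6, 9 and 5), for Cre without IL-1β in Ldha f/f and Nampt f/f to 0 and 0 (from 2 and 1), for the interaction to 1, 1 and 0 (from 2, 4 and 3), and for IL-1β with FX11 against untreated to 3 (from 0). For Cre under IL-1β averaged over lines (5), set 2 alone, without Ldha f/f and without Nampt f/f gave 1 each, and without Nfkbiz f/f and by voom gave 9 each. For Cre without IL-1β averaged over lines (2), set 2 alone, without Ldha f/f and without Nampt f/f gave 0 each. With no filter the interaction in Ldha f/f had 4 calls (from 2).

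Counts over all genes that moved by over 1.5 times were these. The model over 32 libraries called 1415, 2191 and 1982 genes for IL-1β (main 4425, 5642 and 4120), 2822, 4934 and 851 for Cre under IL-1β (5392, 7808 and 2666), 89, 300 and 23 for Cre without it (877, 2319 and 40) and 312, 748 and 40 for the interaction (1826, 3552 and 797). In wild type (0 each) it called 52 for IL-1β, 2 for FX11, 1561 for both against untreated and 16 for both against IL-1β, no filter called 8 for both against untreated, and leaving out the 2 doubted libraries, chosen after seeing the data, gave 1 for IL-1β and 1 for both against untreated. For Nfkbiz f/f, Cre without IL-1β had 71 by DESeq2 and 170 with no filter (40), and the interaction 1325 with no filter (797). For Ldha f/f minus Nampt f/f, DESeq2 called 183, voom 666 and no filter 353 (90). Averaged over lines, Cre without IL-1β had 255 in set 2 alone and 327, 382 and 4356 with 1 line left out (2511), and Cre under IL-1β had 8480 by voom, 1645 in set 2 alone and 1751, 1835 and 9032 with 1 line left out (5490).

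Leaving out 1 library gave 7 to 8, 7 to 8 and 6 to 7 calls for IL-1β in the 3 lines and 7 to 7 pooled, 6 to 6, 6 to 8 and 4 to 5 for Cre under IL-1β and 3 to 7 averaged, 0 to 1, 1 to 1 and 0 to 0 for Cre without IL-1β and 1 to 3 averaged, 1 to 4, 2 to 4 and 1 to 3 for the interaction, 6 to 7, 7 to 7 and 1 to 1 for the line differences, and 0 to 0 in wild type. Over all genes these fits called 289 to 622 for Cre without IL-1β in Ldha f/f, 1332 to 1662 in Nampt f/f, 21 to 32 in Nfkbiz f/f and 1534 to 3248 averaged, 1081 to 1577 and 344 to 1892 for the interaction in Ldha f/f and Nfkbiz f/f, 2487 to 2799 for IL-1β and 1290 to 3733 for Cre under IL-1β in Nfkbiz f/f, and 19 to 36 for Ldha f/f minus Nampt f/f. A condition left with 1 library was assumed to vary like the others.

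With a replicate block, the labels not saying that a number marks a batch, calls went to 2 for Cre without IL-1β in Nampt f/f (from 1), 4 for the interaction in Ldha f/f (from 2) and 1 for Cre without IL-1β averaged over lines (from 2). Over all genes the block gave 1995 and 4311 for Cre without IL-1β and 3374 and 5648 for the interaction in Ldha f/f and Nampt f/f (877, 2319, 1826 and 3552 without it). Members that the block added were Tnfrsf12a for Cre under IL-1β (adjusted p = 0.0105), Fas for Cre without it (0.0248) and Tnfrsf9 and Fas for the interaction (0.0322 and 0.0133) in Ldha f/f, and Cd40 for IL-1β (0.0246) and Tnfrsf12a for Cre without IL-1β and the interaction (0.0334 and 0.0031) in Nampt f/f. It lost Tnfrsf1b for Cre without IL-1β (0.0536) and Tnfsf11 for Cre under it (0.0898) averaged over lines, and changed no other call. Correlations of the deviations of same-numbered libraries were -0.18 to 0.72 in wild type, 0.34 to 0.55 in Ldha f/f and 0.35 to 0.46 in Nampt f/f.

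For the Tnfsf11 to Tnfrsf11b ratio, IL-1β gave 2.78, 3.02 and 2.47 with 1 line left out, in the same order, with an exact permutation p of 0.0556 each, the smallest that 2 lines can give. Cre without IL-1β gave -0.43, -0.33 and -0.31, with an exact permutation p of 0.0556, 0.167 and 0.111, and Cre under IL-1β reversed to -0.31 without Ldha f/f and -0.83 without Nampt f/f (exact permutation p = 0.611 and 0.444). Adding 1 or 0.01 RPKM in place of 0.1 gave 1.67 and 3.02 for IL-1β, 0.48 and 0.19 for Cre under IL-1β and -0.2 and -0.46 for Cre without it. The causes were not tested, except that the smaller designs hold fewer libraries. Low counts limit Tnf and Tnfsf13b at this depth.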
